A study of Mus musculus with 98 samples.

Results

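Transcripts of 10 genes of the perineuronal net and its hyaluronan matrix were followed through 98 mouse RNA-seq libraries in 22 groups. The genes encode 2 link proteins (Hapln1 and Hapln4), 4 chondroitin sulphate proteoglycans of the lectican family (Acan, Bcan, Ncan and Vcan), 2 tenascins (Tnr and Tnc) and 2 hyaluronan synthases (Has2 and Has3). They were listed by name, and all 10 were present in each of the 6 deposited count tables, which hold 25239 or 55367 genes. Hapln1 was picked for its rise with ACSS2 in stimulated PBS neurons, so that its values in that comparison are given as a description, with no test.

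Perineuronal nets are lattices of extracellular matrix that condense around the cell body and dendrites of some neurons, above all fast-spiking neurons that express parvalbumin. Membrane-bound synthases extrude hyaluronan, lecticans bind to it, link proteins stabilise that bond, and tenascin-R crosslinks lecticans at their other end. The nets assemble as circuits mature, and they are known for limiting plasticity and for their part in memory in the hippocampus. Astrocytes and oligodendrocyte precursors make several of the components as well as neurons do.

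The study raised the level of ACSS2, which converts acetate to acetyl-CoA, with a PhP.eB virus (upACSS2) and compared it with an empty vector virus. Primary hippocampal neurons from embryos of the CD1 strain received a virus on day 5 in vitro and, after a wash on day 7, either hAD-tau (the label's name for the tau material, called tau here) or PBS. Resting cultures were taken on day 9 or day 21, with 3 libraries for each of the 8 combinations of day, virus and tau or PBS. Stimulated cultures were taken on day 21, with 3 libraries for each of the 4 combinations. The labels give neither their strain nor the kind of stimulation. A further set of CD1 cultures without virus was taken on day 21 after tau (4 libraries) or PBS (3 libraries). In mice the virus was injected behind the eye. Hippocampus came from C57BL6 males aged 22 to 23 months, 2 months after injection and after recall of a remote context memory (12 mice per virus, whole hippocampus). Dorsal hippocampus came from C57BL6 males aged 10 months, 2 weeks after injection and after fear conditioning (6 upACSS2 and 5 vector mice). PS19 males, which carry a mutant human tau transgene driven by the Prnp promoter, were injected at 2.5 months and taken after context recall, 1 month (age 3.5 months) or 6 months (age 8.5 to 9 months) later, with 5 mice per virus at each time. The tissue label reads whole hippocampus in PS19 upACSS2 mice taken 1 month after injection, but dorsal hippocampus in the remaining PS19 mice, so at that time a difference by virus and a difference by tissue cannot be told apart. The sources used here do not give the promoter that drives the virus, and the labels do not say whether culture libraries came from separate cultures, so that p-values measure only the spread between these libraries.

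Total counts ran from 5075099 to 39985460 per library. Groups follow the sample titles, because the treatment entries contradict the titles for 3 kinds of groups (vector with tau, upACSS2 with PBS, and PS19 upACSS2 at 1 month). Acss2 was at 1487 to 5460 CPM (counts per library scaled to a common total, with TMM factors) in the upACSS2 culture libraries and at 40.1 to 57.84 CPM in the vector culture libraries. In the mice the Acss2 ranges of the virus groups overlapped, except at 10 months, where they lay close together. With upACSS2 against vector they were 46.57 to 61.35 CPM (median 54.77) against 39.88 to 53.63 CPM (median 48.045) in aged mice. At 10 months they were 49.8 to 59.12 CPM (median 57.32) against 42.14 to 48.7 CPM (median 42.89). In PS19 mice at 1 month they were 60.02 to 1463 CPM (median 317.5) against 51.43 to 66.27 CPM (median 52.78). At 6 months they were 44.88 to 236.5 CPM (median 100.4) against 43.03 to 55.89 CPM (median 46.47). Summed CPM of 6 activity genes was 4468 to 6360 in the stimulated libraries and 92.28 to 298.9 in the resting day 21 libraries with virus.

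Each lectican gene lies beside a link protein gene in the mouse genome. In GRCm38 (GENCODE M21 annotation), Hapln1 lies at chr13:89539796-89611652 on the plus strand and Vcan at chr13:89655312-89742509 on the minus strand, 43659 bases apart. Hapln4 (chr8:70083457-70090862, plus) and Ncan (chr8:70093085-70120873, minus) are 2222 bases apart. Bcan (chr3:87987531-88000230, minus) is 21519 bases from Hapln2, and Acan (chr7:79053483-79115099, plus) is 2 bases from Hapln3. No protein-coding gene is annotated between the partners of any of these 4 pairs. The tenascin genes Tnr (chr1:159523769-159931729, plus) and Tnc (chr4:63959785-64047015, minus) and the synthase genes Has2 (chr15:56665627-56694539, minus) and Has3 (chr8:106870242-106884566, plus) have no such partner. The annotation has genes on the opposite strand within the bounds of 6 members: Gm8546 for Hapln1, Gm16318 and Gm4117 for Vcan, Gm38039 for Tnr, 8030451A03Rik for Tnc, Has2os for Has2 and Chtf8 for Has3. On the same strand Tnr overlaps Gm37731 and Gm10530, and Ncan overlaps Mir7066. The strand setting of the counting is not given in the sources used here, so where exons overlap, reads of these genes and of their partners cannot be told apart.

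The 250 bases before the start of 4 members are shown because their transcripts moved in opposite directions between day 9 and day 21 of culture: Tnr, Bcan and Vcan were higher on day 21, and Acan was lower. The windows are chr1:159523519-159523768 (Tnr, plus strand), chr3:88000357-88000606 (Bcan, minus), chr13:89742513-89742762 (Vcan, minus) and chr7:79052976-79053225 (Acan, plus). They are RefSeq promoter windows of GRCm38.p6, placed by the RefSeq starts, which for Acan, Bcan and Vcan differ from the GENCODE starts given above, and are written 5′ to 3′ along the gene's strand, and capitals mark matches to a GC box (GGGCGG) or an E-box (CAGCTG) on either strand.
Tnr: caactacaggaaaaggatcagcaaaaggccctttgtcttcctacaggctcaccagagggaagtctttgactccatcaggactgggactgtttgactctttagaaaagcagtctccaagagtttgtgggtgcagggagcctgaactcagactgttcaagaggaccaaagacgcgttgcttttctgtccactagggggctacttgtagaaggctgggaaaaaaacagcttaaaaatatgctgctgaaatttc
Bcan: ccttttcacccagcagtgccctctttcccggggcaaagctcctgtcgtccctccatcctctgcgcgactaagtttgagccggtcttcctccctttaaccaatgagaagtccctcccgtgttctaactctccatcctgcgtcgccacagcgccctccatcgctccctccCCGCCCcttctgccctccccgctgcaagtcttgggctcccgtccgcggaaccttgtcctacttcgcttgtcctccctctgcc
Vcan: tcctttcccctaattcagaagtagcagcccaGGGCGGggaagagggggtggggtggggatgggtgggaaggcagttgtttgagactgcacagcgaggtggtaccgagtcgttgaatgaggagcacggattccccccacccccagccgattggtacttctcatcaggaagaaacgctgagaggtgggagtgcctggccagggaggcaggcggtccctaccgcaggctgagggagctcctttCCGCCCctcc
Acan: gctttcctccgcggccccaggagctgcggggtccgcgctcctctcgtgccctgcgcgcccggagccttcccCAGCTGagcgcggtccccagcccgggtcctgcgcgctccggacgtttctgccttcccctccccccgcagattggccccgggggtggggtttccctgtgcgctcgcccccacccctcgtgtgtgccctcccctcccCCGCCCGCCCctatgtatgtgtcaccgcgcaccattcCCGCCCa
The Acan window held 3 GC boxes, of which the first 2 overlap, and 1 E-box. The Bcan window held 1 GC box and the Vcan window held 2. The Tnr window held none of the motifs searched. Its GC content was 46.8%, against 74.4% for Acan, 62.4% for Vcan and 62% for Bcan. Tnc, which was also lower on day 21, has a window outside its annotated exons that is not shown (chr4:64047016-64047265, minus). That window held 1 GC box, and its GC content was 44.8%. Over 32851 such windows, 32.7% held a GC box and 13% the E-box. The other motifs searched, the AP-1 site TGANTCA (6.75% of windows) and the CRE site TGACGTCA (1.55%), were in none of the 4 windows.

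Levels were compared per kilobase of all annotated exons of a gene merged, which can be longer than any 1 transcript. By this measure Ncan, the lectican neurocan of young and adult brain, had the highest level of the 10 genes in resting vector PBS neurons. Its median was 118.6 CPM per kilobase on day 9, followed by Bcan, the brain lectican brevican, at 33.91 and Hapln1 at 15.74. On day 21 the first 3 places were the same, with medians of 80.76, 61.22 and 23.97 CPM per kilobase. Tnr moved up to 12.81 and Hapln4, the link protein also called Bral2, to 9.36 CPM per kilobase. Has2 was lowest on day 9 (0.0858) and Has3 on day 21 (0.4763). In aged vector mice Bcan led at 48.49 CPM per kilobase, followed by Hapln4 at 28.61 and Ncan at 21.86. Aggrecan (Acan), the lectican that is the usual stain for nets, was low per kilobase throughout: 1.872 on day 9, 0.5844 on day 21 and 0.431 in aged vector mice.

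Between day 9 and day 21 of culture, all 10 genes changed in the vector PBS neurons, 6 of them higher and 4 lower on day 21. Hapln4, Tnr, Has2, Vcan, Bcan and Hapln1 were higher, and Has3, Acan, Tnc and Ncan were lower. The same 6 rose in all 4 combinations of virus and tau or PBS. In the other 3 combinations Acan, Tnc and Has3 fell as well and Ncan did not pass the test, so that 9 of 10 changed in each. Over all genes, 30.6% of 14863 genes tested were higher on day 21 and 27.1% lower in vector PBS neurons. The shares were 27.7% and 24.9% in vector tau, 28.5% and 25.8% in upACSS2 PBS and 27.2% and 26.4% in upACSS2 tau neurons. The members' counts are read against these shares, in a list chosen with earlier results known.

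**Figure D1:**
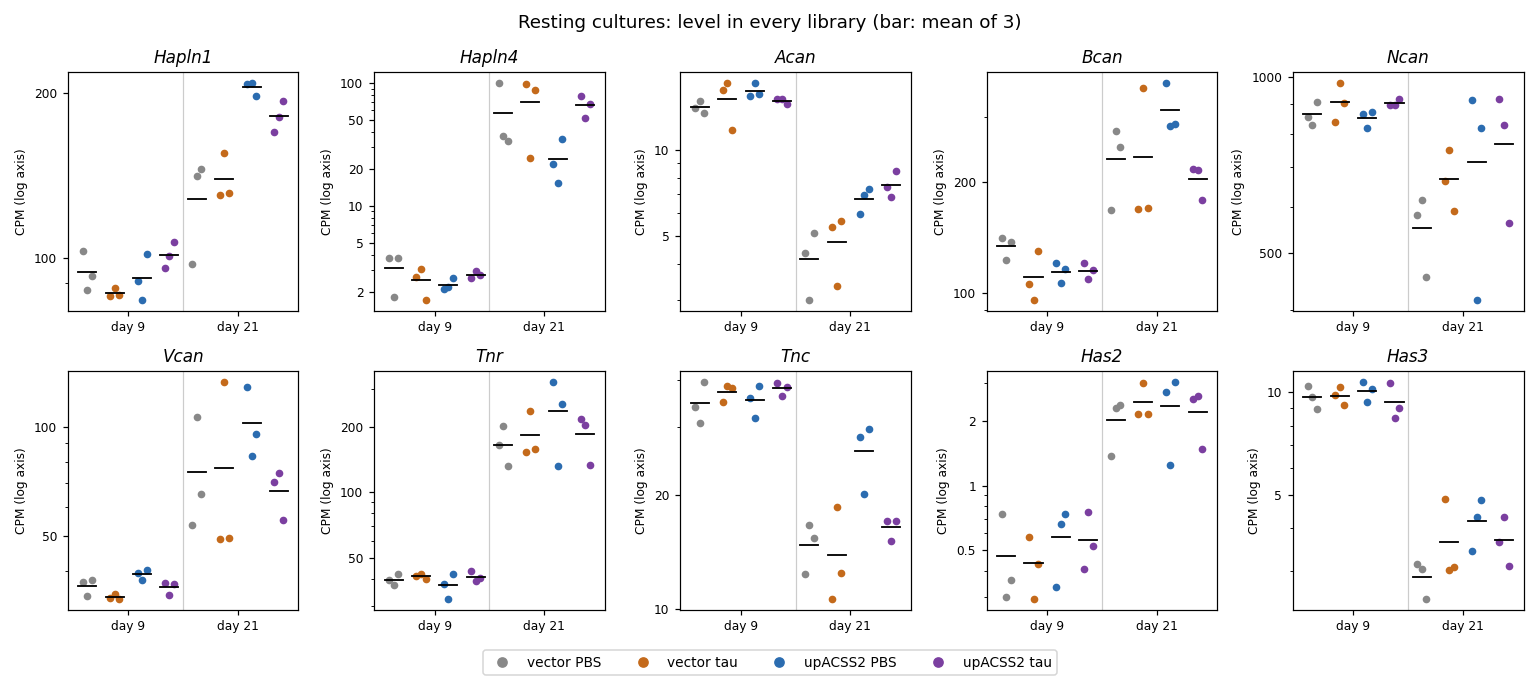
CPM (log axis) of the 10 genes in the 24 resting culture libraries, 1 panel per gene, with 1 point per library and a bar at the mean of the 3 libraries of each combination of day, virus and tau or PBS. Hapln4, Tnr, Bcan, Vcan and Has2 are higher in every day 21 library than in any day 9 library. Acan, Has3 and Tnc are lower in every day 21 library than in any day 9 library. Hapln1 and Ncan overlap between the days.

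Among the link proteins, Hapln4 made the largest move of the 10. It was at 3.739, 1.809 and 3.756 CPM in the 3 vector PBS libraries of day 9 and at 100.5, 36.73 and 33.59 CPM on day 21. The day 21 libraries were spread over a wide range, but none came near the day 9 values. The difference was 4.16 on the log2 scale (SE 0.50, adjusted p = 7.2e-07, edgeR quasi-likelihood test with Benjamini-Hochberg adjustment), and the other 3 combinations gave 3.40 to 4.81. Hapln1 moved much less. It was at 103, 87.49 and 92.88 CPM on day 9 and at 97.75, 141.5 and 145.3 CPM on day 21, so that 1 day 21 library lay among the day 9 values. The log2 difference was 0.44 (SE 0.11, adjusted p = 0.00264) in vector PBS, 0.69 in vector tau, 1.15 in upACSS2 PBS and 0.84 in upACSS2 tau neurons. The call in vector PBS neurons was lost when only those 2 groups were fitted (adjusted p = 0.0618, edgeR). Whether these 4 differences differ from each other was not tested as an interaction.

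The 4 lecticans split. Bcan was at 141.2, 123.1 and 137.8 CPM on day 9 and at 168, 275.4 and 248.8 CPM on day 21 in vector PBS neurons, a log2 difference of 0.78 (SE 0.22, adjusted p = 0.00471, edgeR). Versican (Vcan), a large lectican of developing tissue and of oligodendrocyte precursors, went from 37.3, 34.25 and 37.81 CPM to 53.51, 106 and 65.26 CPM (log2 difference 1.04, SE 0.29, adjusted p = 0.00396, edgeR). The groups did not overlap for either gene. Acan went the other way, from 13.98, 14.77 and 13.45 CPM to 4.365, 3 and 5.141 CPM, a difference of -1.75 (SE 0.18, adjusted p = 1.17e-07, edgeR), and its differences were -1.64, -1.25 and -0.97 in vector tau, upACSS2 PBS and upACSS2 tau neurons. Ncan was at 853.3, 828.4 and 906.7 CPM on day 9 and at 581.1, 616.1 and 455.3 CPM on day 21 in vector PBS neurons (-0.65, SE 0.20, adjusted p = 0.00947, edgeR). In the other 3 combinations its differences were -0.44, -0.25 and -0.23, with adjusted p-values of 0.0721, 0.305 and 0.342 in the same fit.

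The tenascins also parted. Tnr, the tenascin of the adult nervous system that crosslinks net lecticans, was at 39.29, 37.38 and 42.11 CPM on day 9 and at 164.8, 201.5 and 131.8 CPM on day 21 in vector PBS neurons. Its log2 difference was 2.07 (SE 0.25, adjusted p = 6.3e-07, edgeR), and 2.16 to 2.66 in the other combinations. Tnc, the tenascin of developing and injured tissue, fell from 33.93, 30.87 and 39.44 CPM to 12.36, 16.62 and 15.39 CPM (-1.23, SE 0.17, adjusted p = 2.94e-06, edgeR). Its smallest difference was in upACSS2 PBS neurons, where the day 21 libraries stood at 28.34, 20.1 and 29.63 CPM and the log2 difference was -0.44. The synthase Has3 was at 10.45, 9.708 and 8.967 CPM on day 9 and at 3.139, 3.039 and 2.485 CPM on day 21 (-1.76, SE 0.18, adjusted p = 6.91e-08, edgeR). Has2, which makes long hyaluronan chains, was low on day 9, at 0.7356, 0.3015 and 0.3635 CPM, and stood at 1.373, 2.308 and 2.371 CPM on day 21 (2.00, SE 0.40, adjusted p = 0.000226, edgeR).

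**Figure D2:**
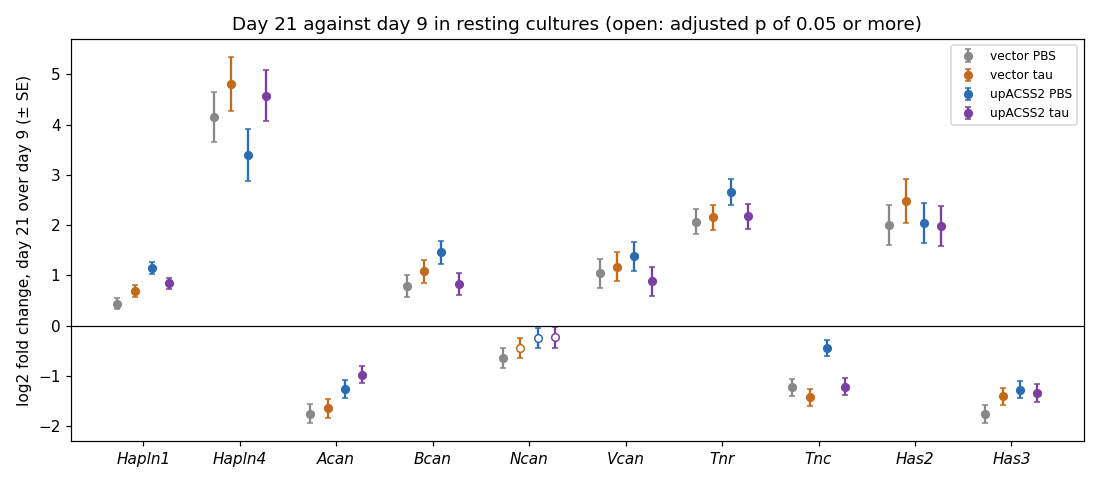
Log2 difference of day 21 over day 9 for each of the 10 genes (error bars are SE of the fit), with 1 marker for each of the 4 combinations of virus and tau or PBS and open markers where the adjusted p is 0.05 or above. 6 genes lie above 0 in all 4 combinations and Acan, Tnc and Has3 lie below it, while Ncan is filled in vector PBS alone.

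A list of 69 other genes of the same matrix and its metabolism showed changes in both directions. Of 65 tested, 23 were higher and 11 lower on day 21 in vector PBS neurons, 23 and 10 in vector tau, 24 and 11 in upACSS2 PBS and 24 and 9 in upACSS2 tau neurons. The list's median log2 difference was 0.12 to 0.17, against 0.01 to 0.05 for all genes. By kind, in vector PBS neurons, 4 of 8 genes of hyaluronan breakdown and its receptors were higher and none lower. Of 7 matrix receptor genes none was higher and 3 were lower. Beside the 30.6% higher and 27.1% lower over all genes these are small lists, and the difference between them was not tested. Cspg4, the NG2 proteoglycan of oligodendrocyte precursors, was at 4.462 to 7.295 CPM on day 9 and at 39.73 to 58.42 CPM on day 21 in vector PBS neurons. Its log2 differences in the 4 combinations were 2.90, 3.57, 4.36 and 4.26. Smoc1, a secreted calcium-binding matrix protein, rose by 2.45 (8.863 to 13.94 CPM on day 9, 53.76 to 82.14 CPM on day 21, vector PBS). Adamts4, a protease that cleaves lecticans, rose by 3.13 in upACSS2 PBS neurons (1.762 to 2.176 CPM on day 9, 4.495 to 24.33 CPM on day 21) and by 2.92 in upACSS2 tau neurons. Mmp3, a metalloprotease, was also called higher, but it had at most 1 count per library on day 9, so no fold is given.

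The make-up of the cultures moved with these genes. In vector PBS neurons all 6 oligodendrocyte precursor markers were higher on day 21 (median log2 difference 4.73), and their summed CPM went from 249.7 to 292.5 on day 9 to 1096 to 1792 on day 21. Of 9 astrocyte markers 8 were higher (median 1.80), of 5 parvalbumin neuron markers 4 (median 2.37), and of 6 excitatory neuron markers 1 was higher and 3 lower. The summed CPM of the parvalbumin neuron markers overlapped between the days, at 99.13 to 106.6 on day 9 and 92.93 to 131.3 on day 21. Pdgfra, the receptor that defines the precursors, went from a median of 11.9 to 290 CPM. The astrocyte filament gene Gfap went from 403 to 4750 CPM and Pvalb, which encodes parvalbumin, from 0.0606 to 3.42 CPM. Microglial markers summed to 3.342 to 7.658 CPM over both days in vector PBS neurons, with up to 1 of the 6 at 0 in a library on day 9 and up to 2 on day 21. In these bulk libraries a different number of cells of a type and a different amount of RNA per cell cannot be told apart, and the part of these cell types in the members' differences was not tested.

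Across the day 21 libraries with virus, Bcan and Vcan followed the precursor markers closely. Over the 12 resting libraries, log2 CPM of Vcan and of the summed markers correlated with r = 0.948 (rho 0.944, adjusted permutation p = 0.000133), and r was 0.916 without the 2 libraries farthest from the median. For Bcan r was 0.903 (rho 0.86, adjusted permutation p = 0.00068, r = 0.827 without those 2 libraries). Over the 12 stimulated libraries r was 0.972 for Vcan (rho 0.951, permutation p = 1e-05, the smallest that 100000 permutations can give, adjusted 0.000133) and 0.915 for Bcan (rho 0.867, adjusted permutation p = 0.0003). After the mean of each of the 4 groups was taken off, these 4 values were 0.962, 0.891, 0.986 and 0.971. Of the other members, Tnc had r = 0.819 at rest (rho 0.783, adjusted permutation p = 0.00222) and 0.523 when stimulated (rho 0.476, adjusted permutation p = 0.123). Ncan had r = 0.341 at rest (rho 0.329, adjusted permutation p = 0.395) and 0.842 when stimulated (rho 0.874, adjusted permutation p = 0.00126). Has2 had r = 0.316 at rest (rho 0.441, adjusted permutation p = 0.418) and 0.866 when stimulated (rho 0.874, adjusted permutation p = 0.00126). Has3 missed the threshold in both sets (r = 0.13, rho 0.035, adjusted permutation p = 0.758, and r = -0.55, rho -0.517, adjusted permutation p = 0.11). Vcan and Bcan are themselves made by precursors, the stimulated and resting libraries with the same number may share a source, and the 20 relations computed were chosen after values had been seen. The permutations treat the 12 libraries of a set as exchangeable, although same-numbered stimulated libraries of different groups deviated together in 2 of the comparisons, so the p-values may be too small. They also run across the 4 groups, so a p-value does not separate differences between groups from a relation within them.

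Among the link proteins, Hapln4 ran against them in the resting libraries (r = -0.81, rho -0.776, adjusted permutation p = 0.00562, r = -0.736 without 2 libraries). In the stimulated libraries its r was -0.167 (rho -0.427, adjusted permutation p = 0.758) and -0.889 without the 2 farthest libraries, so the pooled value rests on those 2. Hapln1 had r = 0.641 in the resting libraries (rho 0.671, adjusted permutation p = 0.0432). In the stimulated ones its r was 0.0726 (rho 0.126), and 0.694 without 2 libraries. These stimulated libraries include those by which Hapln1 was picked, so its values there are a description with no test. Tnr had r = 0.66 at rest (rho 0.58, adjusted permutation p = 0.0419) and fell to 0.42 without 2 libraries, against 0.91 when stimulated (rho 0.916, adjusted permutation p = 0.000133). After the group means were taken off, resting r was -0.724 for Hapln4, 0.531 for Hapln1, 0.591 for Tnr and 0.72 for Tnc. The stimulated values were -0.303, 0.15, 0.911 and 0.761 in the same order, all with no test. Acan had r = -0.144 at rest (rho 0, adjusted permutation p = 0.758), but -0.954 after the group means were taken off, a value with no test. When stimulated its r was 0.00102 (rho -0.112, adjusted permutation p = 0.997) and -0.035 within groups.

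**Figure D3:**
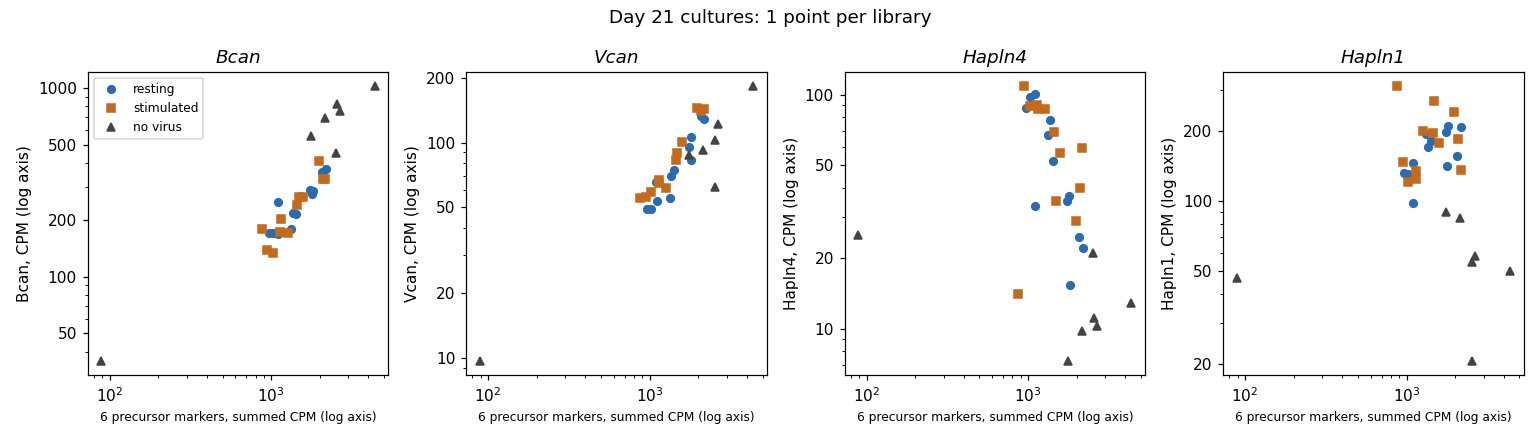
CPM of Bcan, Vcan, Hapln4 and Hapln1 against the summed CPM of 6 oligodendrocyte precursor markers in the 31 culture libraries of day 21 (both axes log, 1 point per library, marked by set). Bcan and Vcan climb with the markers, down to the PBS library without virus at 88.85 CPM of markers, while in the resting libraries Hapln4 falls as the markers rise and Hapln1 is more scattered around its rise.

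Within day 9, where the 12 libraries were very close to each other (biological coefficient of variation 0.042), 1 of 10 genes passed the test for ACSS2 in PBS neurons, against 10.2% of 14022 genes tested. This was Bcan, at 120.8, 106.2 and 116 CPM with upACSS2 and 141.2, 123.1 and 137.8 CPM with vector. The groups did not overlap, and the log2 difference was -0.24 (SE 0.08, adjusted p = 0.0477, edgeR). Bcan also differed between tau and PBS in vector neurons, with tau at 105.5, 95.95 and 130.2 CPM, of which 1 library overlapped the same PBS libraries (-0.29, SE 0.08, adjusted p = 0.0353, edgeR, 1 of 10 genes against 4.28% of all). The 2 comparisons share the 3 vector PBS libraries. Neither passed in DESeq2 (adjusted p = 0.168 and 0.132) or in the fit of all 24 resting libraries. Leaving out single libraries lost Bcan in 5 of 6 and 4 of 6 cases.

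Some precursor markers were also lower in both of these comparisons. With ACSS2 3 of the 5 tested were lower and none higher (median -0.90), and with tau 3 of 5 (median -0.72). Summed precursor CPM overlapped for ACSS2, at 238.4 to 263.9 with upACSS2 against 249.7 to 292.5 with vector, both with PBS. With vector and tau it was 153.8 to 194.4, below those vector PBS libraries. All 5 markers of dividing cells were lower in both comparisons (medians -0.56 and -0.58). The part of these markers in the Bcan differences was not tested. Of 62 other matrix genes tested, 6 were higher and 3 lower with ACSS2 in PBS neurons, among them Cspg4 at -0.72 (SE 0.18, adjusted p = 0.0151, edgeR). With tau in vector neurons 1 was higher and 3 lower.

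The other 3 comparisons of day 9 gave 0 of 10 members with edgeR. These were ACSS2 in tau neurons (0.692% of all genes called, 1 member at an unadjusted p under 0.05, 0 in DESeq2), tau in upACSS2 neurons (0.349%, 2 members, 0 in DESeq2) and the interaction of virus and tau (0.663%, 2 members, 0 in DESeq2). Over all 14022 genes the unadjusted counts were 1761, 1269 and 2409, and DESeq2 called 113, 79 and 331. Hapln1 had the lowest adjusted p in the first, at 96.05, 100.9 and 106.8 CPM with upACSS2 and tau and 85.39, 88.26 and 85.66 CPM with vector and tau. These groups did not overlap, with a log2 difference of 0.23 (SE 0.06, adjusted p = 0.0848, edgeR) and an adjusted p of 0.0013 when no filter on low counts was used. In PBS neurons of day 9 Hapln1 overlapped between the viruses (83.96 to 101.7 against 87.49 to 103 CPM). The interaction for Hapln1 was 0.27 (adjusted p = 0.102, and 0.00626 with no filter, edgeR).

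On day 21 in resting neurons no member passed in any of the 5 comparisons, and almost no gene did. With edgeR, 0 of 10 members and 0.0137% of 14639 genes were called for ACSS2 in PBS neurons, 0 and 0.0273% for ACSS2 in tau neurons, and 0 members and 0% of genes in each of the other 3. At an unadjusted p under 0.05 the 5 comparisons had 5, 2, 0, 3 and 0 members, in the order ACSS2 in PBS, ACSS2 in tau, tau in vector, tau in upACSS2 and interaction. Over all 14639 genes the same threshold gave 2431, 1564, 1361, 931 and 1215. DESeq2 called 2, 0, 0, 0 and 0 members, Hapln1 and Tnc in the first, and 360, 131, 3, 11 and 3 genes in all. The libraries were spread far more than on day 9 (biological coefficient of variation 0.189).

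Hapln1 was at 207.9, 209.1 and 197.8 CPM with upACSS2 and PBS and at 97.75, 141.5 and 145.3 CPM with vector and PBS. All 3 upACSS2 libraries stood above all 3 vector libraries. The log2 difference was 0.67 (SE 0.15, adjusted p = 0.128 in edgeR, 0.00391 in DESeq2, 0.0023 in the edgeR fit of all 24 libraries). With tau the upACSS2 libraries were at 170.2, 181.3 and 194 CPM and the vector libraries at 130.2, 155.9 and 131.7 CPM. Again the groups did not overlap, with a smaller difference of 0.40 (SE 0.15, adjusted p = 0.384, edgeR). These libraries may not be independent of those by which Hapln1 was picked: over all genes, upACSS2 PBS libraries of the resting and stimulated sets with the same number deviated from their group means together (r = 0.411 to 0.613, against -0.45 to 0.018 for unlike numbers).

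Tnc was at 28.34, 20.1 and 29.63 CPM with upACSS2 and PBS and at 12.36, 16.62 and 15.39 CPM with vector and PBS, a log2 difference of 0.80 (SE 0.21, adjusted p = 0.168, edgeR) without overlap. Acan stood at 5.978, 6.958 and 7.295 CPM against 4.365, 3 and 5.141 CPM (0.68, SE 0.24, adjusted p = 0.227, edgeR), also without overlap. Hapln4 was the 1 member with a negative difference: 22.03, 15.34 and 35.03 CPM with upACSS2 against 100.5, 36.73 and 33.59 CPM with vector (-1.24, SE 0.52, adjusted p = 0.276, edgeR), where the highest upACSS2 library lay above the lowest vector library. The median of the 10 log2 differences was 0.47, against -0.00 over all genes, in a list chosen with these results in view. Beside it, 6 of 6 precursor markers had positive differences (median 0.51) and 0 of 9 astrocyte markers did (median -0.89), with none of either past the test. Summed precursor CPM was 1750 to 2184 with upACSS2 and 1096 to 1792 with vector. That of 6 inhibitory neuron markers was 1506 to 1740 (median 1730) with upACSS2 and 1193 to 1530 (median 1272) with vector, with overlap. In tau neurons the inhibitory sums were 1387 to 1824 CPM with upACSS2 and 1135 to 1268 CPM with vector, without overlap. The part of these cells was not tested. None of the 65 other matrix genes tested passed in any of the 5 comparisons.

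**Figure D4:**
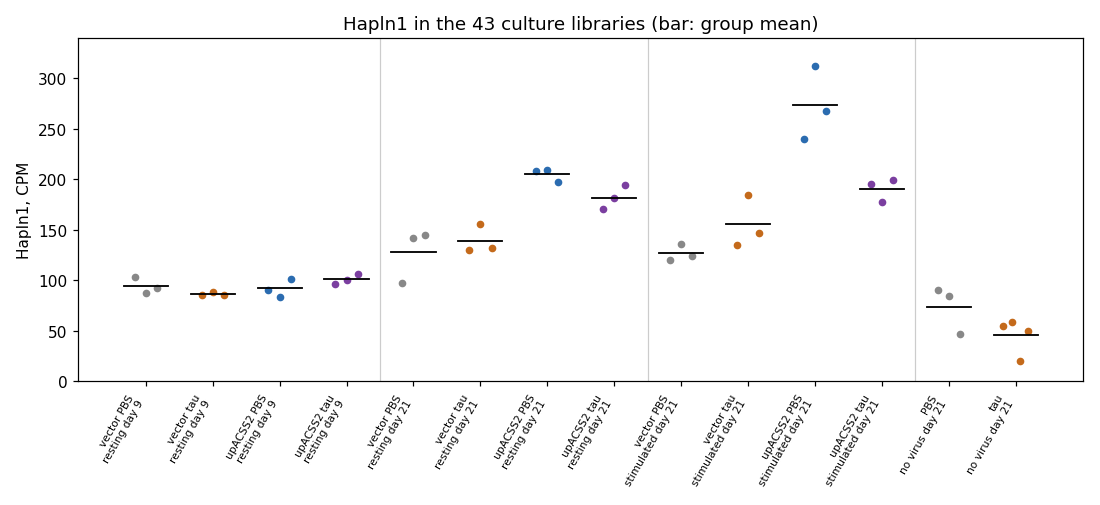
Hapln1 CPM in each of the 43 culture libraries, grouped by set, day, virus and tau or PBS, with 1 point per library and a bar at the group mean. On day 21 every upACSS2 PBS library lies at 197.8 CPM or above, and every vector PBS library at 145.3 CPM or below, at rest and when stimulated.

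In stimulated PBS neurons, the comparison by which Hapln1 was picked, the upACSS2 libraries were at 239.9, 311.9 and 267.5 CPM and the vector libraries at 120.4, 136.2 and 124 CPM. The log2 difference was 1.11, and it ran from 1.00 to 1.19 when single libraries were left out. No member is tested here. Hapln4 had the largest difference in the other direction, -1.61, at 28.89, 14.09 and 35.1 CPM with upACSS2 against 89.74, 59.15 and 90.1 CPM with vector, also without overlap. Tnc differed by 0.79 (36.75, 25.23 and 20.49 against 13.82, 19.39 and 14.19 CPM). The log2 differences of the other 7 were 0.10 to 0.48. Neuron markers differed between the same libraries. Summed CPM of 6 inhibitory neuron markers was 1798 to 2226 with upACSS2 and 1386 to 1750 with vector, without overlap, and that of 6 excitatory neuron markers was 2503 to 3120 (median 2509) against 3039 to 3866 (median 3560). All 6 inhibitory and all 5 parvalbumin neuron markers had positive differences (medians 0.40 and 0.35), and 2 of 6 excitatory ones did (median -0.34). Their part in the members' differences was not tested.

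With tau the stimulated Hapln1 libraries overlapped: 195.9, 177.3 and 199.4 CPM with upACSS2 and 134.8, 185 and 146.9 CPM with vector (0.29, SE 0.12, adjusted p = 0.20, edgeR). None of 10 members passed, against 0.937% of 14939 genes, with 1 at an unadjusted p under 0.05 and 0 in DESeq2. In these libraries summed inhibitory neuron markers were at 1404 to 1813 CPM with upACSS2 and 1100 to 1215 CPM with vector, without overlap. The part of these markers was not tested. Between tau and PBS, 9 members were tested, since Hapln1 had been picked on the PBS libraries. None passed in vector neurons with edgeR (3.02% of all genes, 1 at an unadjusted p under 0.05, 0 in DESeq2). None passed in upACSS2 neurons with edgeR (0.208% of all genes, 2 at an unadjusted p under 0.05, 1 in DESeq2). Over all 14939 genes, 3047, 3624 and 2132 had an unadjusted p under 0.05 for ACSS2 with tau, tau with vector and tau with upACSS2, and DESeq2 called 962, 1521 and 458. The Hapln1 differences between tau and PBS were 0.29 with vector and -0.52 with upACSS2, untested. The interaction of virus and tau in stimulated neurons was not tested.

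Hapln4 was the member called by DESeq2. In stimulated upACSS2 neurons it was at 69.42, 56.48 and 86.77 CPM with tau and 28.89, 14.09 and 35.1 CPM with PBS, with no overlap. The log2 difference was 1.45 (SE 0.37, adjusted p = 0.114 in edgeR, 0.0349 in DESeq2). Resting upACSS2 neurons of day 21 gave a difference of 1.45 as well (77.77, 51.83 and 67.08 CPM with tau against 22.03, 15.34 and 35.03 CPM with PBS, SE 0.52, adjusted p = 0.76, edgeR). The resting and stimulated differences may not be independent, since same-numbered upACSS2 PBS libraries of both sets deviated together over all genes (r = 0.411 to 0.613). In the stimulated upACSS2 neurons summed excitatory neuron markers were at 3871 to 4372 CPM with tau and 2503 to 3120 CPM with PBS, without overlap. Of them Slc17a7, a vesicular glutamate transporter gene, was at 1550 to 1730 against 993 to 1230 CPM. None of these 6 markers passed the test (5 with a positive difference, median 0.58), and their part in the Hapln4 difference was not tested. In vector neurons the tau and PBS libraries overlapped, at 86.97, 39.95 and 109.3 against 89.74, 59.15 and 90.1 CPM when stimulated. Of 67 other matrix genes tested, 1 was lower with ACSS2 in stimulated tau neurons (B3gat3, an enzyme of the chondroitin sulphate linker, -0.44). With tau in stimulated vector neurons 3 were lower: Sparc, a collagen-binding matrix protein, at -0.72, Cemip, which takes part in hyaluronan breakdown, at -0.57, and Plat, tissue plasminogen activator, at -0.50. Summed astrocyte markers were also lower there, at 3091 to 4832 CPM with tau against 6368 to 10300 CPM with PBS, without overlap (2 of 9 lower by the test, median -0.79), and their part was not tested. None passed with tau in upACSS2 neurons.

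Tau without virus gave 0 of 10 members and 0% of 16341 genes in edgeR (2 members, Acan and Has2, at an unadjusted p under 0.05). DESeq2 called 1, Has2 (adjusted p = 0.0464). Over all genes 2272 had an unadjusted p under 0.05 and DESeq2 called 308. Has2 was at 4.909, 4.103, 1.82 and 10.4 CPM with tau and at 2.022, 1.394 and 0.7949 CPM with PBS, with 1 tau library inside the PBS range (2.00, SE 0.63, adjusted p = 0.319, edgeR). Hapln1 was at 54.88, 58.41, 20.61 and 50.19 CPM with tau and at 90.14, 84.41 and 46.83 CPM with PBS, a log2 difference of -0.68. PBS library 3 stood apart. Its Bcan was 35.52 CPM against 560 and 696.8 CPM in the other PBS libraries, and its Vcan 9.611 CPM against 87.78 and 91.96 CPM. Its precursor markers summed to 88.85 CPM against 1755 and 2152, and its astrocyte markers to 2294 CPM against 8586 and 10170. Without it the Hapln1 difference was -0.92, that of Bcan 0.28 in place of 0.83, that of Vcan 0.39 in place of 0.91 and that of Has2 1.71, and none was called. Inhibitory neuron markers summed to 534.2 to 1099 CPM with tau and 1188 to 2482 CPM with PBS, and activity genes to 459 to 683.4 against 169.9 to 298.9 CPM, both without overlap. All 6 inhibitory neuron markers had negative differences (median -1.22), with none past the test. The part of these cells in the differences was not tested.

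No member passed the test for the virus in any mouse cohort. Nor did any other gene with edgeR, so Acss2 itself was not called in these comparisons. A test that did not call the gene the virus carries cannot show that the members were unchanged. Has2 was too low for testing in all 3 mouse tables, so that 9 of 10 were tested. In aged mice 0 of 9 passed in edgeR (0% of 15157 genes, 0 members at an unadjusted p under 0.05 and 0 in DESeq2). Hapln1 ran from 27.94 to 48.33 CPM (median 41.345) with upACSS2 and from 36.71 to 45.03 CPM (median 39.625) with vector. The largest difference was that of Tnc, 0.36 (SE 0.19, adjusted p = 0.879, edgeR), with 2.144 to 5.291 CPM (median 3.471) against 1.003 to 4.863 CPM (median 2.721). Vcan in the mice numbered 1 to 3 was higher than in those numbered 4 to 12 in both groups. It was 19.55, 20.61 and 25.45 against 11.63 to 17.98 CPM with upACSS2, and 21.39, 27.82 and 21.64 against 12.33 to 16.17 CPM with vector. The Hapln1 difference was 0.12 within the first set and -0.04 within the second. The aged test given above had no term for these sets, so its spread includes the difference between them.

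At 10 months 0 of 9 passed in edgeR (0% of 13629 genes, 1 member, Vcan, at an unadjusted p under 0.05, 0 in DESeq2). Hapln1 ran from 44.03 to 50.87 CPM (median 47.66) with upACSS2 and stood at 46.98, 41.74, 46.13, 40.22 and 46.35 CPM with vector. Vcan ran from 14.26 to 19.58 CPM (median 16.865) against 14.69, 12.73, 13.92, 12.32 and 14.43 CPM, a log2 difference of 0.30. Has2 had no count in 2 of the 5 vector libraries, where 3 counts would be 0.4572 and 0.3546 CPM. These limits cover counting error alone. Over all genes, 846 in aged mice and 1204 at 10 months had an unadjusted p under 0.05, and DESeq2 called 0 and 3. None of the other matrix genes tested passed in aged mice (63 genes) or at 10 months (61 genes).

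In PS19 mice the virus gave 0 of 9 at 1 month (0% of 15850 genes, 0 members at an unadjusted p under 0.05, 0 in DESeq2) and 0 of 9 at 6 months (0%, 2 members, Ncan and Vcan, 0 in DESeq2) with edgeR. Hapln1 was at 51.22, 46.25, 51.18, 42.99 and 49.89 CPM with upACSS2 and 46.87, 48.57, 52.14, 33.26 and 45.92 CPM with vector at 1 month. At 6 months it was at 35.61, 55.02, 55.77, 49.1 and 33.34 CPM with upACSS2 and 46.14, 39.03, 37.66, 36.7 and 43.75 CPM with vector. The ranges overlapped at both times. The interaction of virus and time gave 0 of 9 (0% of genes, 3 members at an unadjusted p under 0.05, 0 in DESeq2). Over all genes, 463 at 1 month, 2237 at 6 months and 1956 for the interaction had an unadjusted p under 0.05, of 15850, and DESeq2 called 1, 129 and 3.

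Time after injection, which in these mice is also age, gave 1 call in each virus group. In vector mice Vcan rose, from 14.65, 18.63, 22.67, 15.03 and 23.18 CPM at 1 month to 28.27, 26.12, 25.45, 31.17 and 26.57 CPM at 6 months. All 5 later mice stood above all 5 earlier ones, and the log2 difference was 0.55 (SE 0.13, adjusted p = 0.0181, edgeR), 1 of 9 members against 7.46% of all genes. The call was lost without vector mouse 1 or 2 of 1 month (adjusted p = 0.0638 and 0.0532, edgeR) or mouse 4 of 6 months (0.0594, edgeR). In upACSS2 mice Vcan ranges overlapped (18.11 to 25.16 against 17.96 to 25.62 CPM). There Ncan fell, from 187.7, 198.2, 245.6, 189 and 216.4 CPM at 1 month to 137, 142, 108.9, 159.1 and 141 CPM at 6 months, also without overlap (-0.59, SE 0.10, adjusted p = 0.0338, edgeR, 1 of 9 members against 0.0442% of all genes). The whole hippocampus label of the 1 month upACSS2 mice means that time and tissue cannot be told apart for Ncan, and the call was lost in 9 of 10 cases of leaving out 1 mouse. Ncan was also lower at 6 months in vector mice, without passing the test (-0.25, SE 0.10, adjusted p = 0.115, edgeR). There it was at 172.1 to 208.9 CPM at 1 month and 143 to 178.1 CPM at 6 months, with overlap. The interaction of virus and time for Ncan was -0.34 (SE 0.14, adjusted p = 0.372, edgeR). Of 64 other matrix genes tested in vector mice, 6 were higher and 1 lower at 6 months. They included Cspg4 at 0.83 (SE 0.16, adjusted p = 0.00498, edgeR), Hapln2, the link protein of myelinated axons, at 0.89 and Thbs4, a secreted thrombospondin, at 1.10. In upACSS2 mice none of the 64 passed. Of 6 precursor markers 1 was higher in vector mice (median difference 0.21) and none in upACSS2 mice (0.14). Summed excitatory neuron markers of the upACSS2 mice were at 6317 to 9978 CPM at 1 month and 4798 to 6218 CPM at 6 months, and endothelial and mural markers at 82.98 to 101.4 and 116 to 175.8 CPM, both without overlap. Of these 2 lists of 6 markers, 0 and 1 passed the test (medians -0.33 and 0.46). The part of these markers in the Vcan and Ncan differences was not tested.

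**Figure D5:**
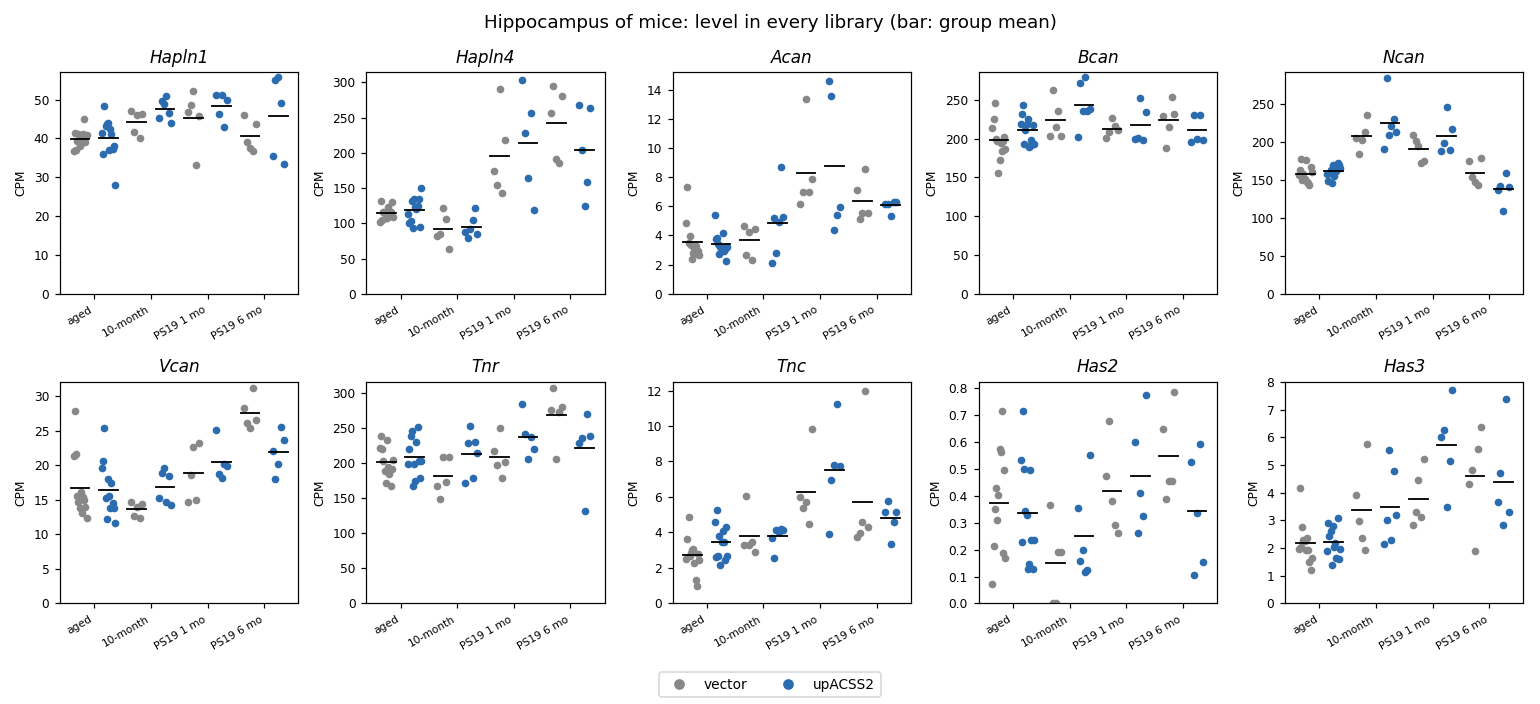
CPM (linear axis) of the 10 genes in the 55 mouse libraries, 1 panel per gene, by cohort, time after injection and virus, with 1 point per mouse and a bar at the group mean. The virus groups overlap in Hapln1 in every cohort, and Vcan of PS19 vector mice is higher in all 5 mice at 6 months than in any at 1 month.

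All 10 genes gave counts in both cultures and mice. Hapln1 was at 97.75 to 311.9 CPM in the day 21 cultures with virus, at 20.61 to 90.14 CPM in those without virus and at 27.94 to 55.77 CPM in the mice. Hapln4 was at 63.86 to 302.9 CPM in mice against 14.09 to 109.3 CPM in the day 21 cultures with virus and 7.245 to 25.08 CPM in those without. These tables were normalised separately and the sets differ in age, cells and strain, so no test was made.

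By Pearson correlation of log2 CPM over the 98 libraries, taken after the mean of each table was removed, the genes most like Hapln1 among 11516 were Hspa9 (0.7206), Abat (0.6933), Sesn2 (0.6831), Eepd1 (0.6565) and Erbb4 (0.6543). Among the members Tnr was the most like it, at rank 182 (0.5408), followed by Bcan (0.4333, rank 935) and Vcan (0.4189, rank 1072). Hapln4 had 0.2838 over all libraries and -0.837 over the 12 stimulated ones. These pooled values do not hold in every table. In PS19 mice the 5 genes had -0.181, -0.094, -0.169, 0.058 and -0.041 in the same order, and at 10 months Abat had -0.306. Tnr had 0.864 over the 24 resting libraries but 0.006 over the stimulated ones and -0.149 in PS19 mice. Over the stimulated libraries Tnc (0.718) and Acan (0.544) were the members most like Hapln1. The libraries of a table share groups and depth, so these values are descriptions.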

How the data were processed

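RNA from cultures and mice was sequenced as 98 libraries, and the labels do not say whether culture libraries came from separate cultures. The authors deposited whole-number counts per gene symbol in 6 tables. The submitters' processing notes name STAR, featureCounts, HTSeq, DESeq2 and mm10, without versions or roles. In the table of cultures without virus, 6.13% to 8.74% of counts lay in a row with no gene name and were left out. Per table, counts were scaled by TMM in edgeR 4.0.16 (R 4.3.3), filtered with filterByExpr by group (minimum count 10) and tested with the quasi-likelihood F test, two-sided, with Benjamini-Hochberg adjustment over all genes tested and a threshold of 0.05. Resting comparisons within a day used that day's 12 libraries, and those between days used all 24. DESeq2 1.42.0, RLE scaling, no filter, a replicate block and leaving out libraries were alternatives. The test was also run on counts simulated from the model fitted to these data, which cannot show where that model misses. Over 242 pairs of libraries within groups, none matched within counting error (the lowest chi-square was 2.32 per gene).

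The members and lists were chosen with earlier results of these data known. All 10 members are named, and of the other matrix genes at most the 4 with the largest change among those called in a comparison are named. Replicate numbers were taken to pair the samples where every same-numbered pair of deviations correlated above 0.1. This held for ACSS2 in stimulated tau neurons (0.111 to 0.359, against -0.363 to 0.053 for unlike numbers). It also held for tau in stimulated vector neurons (0.123 to 0.326, against -0.235 to 0.117) and tau without virus (0.22 to 0.394, against -0.392 to 0.325). In the cultures without virus the like and unlike ranges overlapped.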

Additional observations from a re-analysis of the deposited data

Results flagged for a closer look

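In groups of 4 to 10 libraries, each member's highest and lowest library was compared with the rest of its group. In 6 of 70 such checks the gap to the nearest other library exceeded Dixon's critical value, where chance flags about 1 in 20 groups.

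Of these, 4 concern Tnc, a gene of few counts in hippocampus. At 10 months it was 2.538 CPM in upACSS2 mouse 2, against 3.683 to 4.17 CPM in the others, and 6.068 CPM in vector mouse 2, against 2.885 to 3.464 CPM. In PS19 vector mice it was 9.808 CPM in mouse 5 at 1 month, against 4.502 to 6.017 CPM, and 11.96 CPM in mouse 4 at 6 months, against 3.737 to 4.565 CPM.

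The other 2 concern Acan. It was 13.34 CPM in PS19 vector mouse 3 at 1 month, against 6.175 to 7.899 CPM in the others of its group, and 5.359 CPM in PS19 upACSS2 mouse 3 at 6 months, against 6.166 to 6.331 CPM.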

How the results depend on the processing

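No member's difference changed direction under an alternative where it was called. Counts of members past the threshold moved in these cases, and the cause was not tested. With DESeq2 the count was 0 in place of 1 for ACSS2 in PBS neurons and for tau in vector neurons of day 9, 2 in place of 0 (Hapln1 and Tnc) for ACSS2 in resting PBS neurons of day 21, and 1 in place of 0 for tau in stimulated upACSS2 neurons (Hapln4) and for tau without virus (Has2). In the fit of all 24 resting libraries it was 0 in both day 9 comparisons and 3 (Hapln1, Acan and Tnc) for ACSS2 in PBS neurons of day 21. A fit of the 2 groups alone gave 0 for tau in vector neurons of day 9 and 0 in place of 1 for time in PS19 upACSS2 mice. With no filter on low counts it was 1 for ACSS2 in tau neurons of day 9, 2 for the interaction of day 9 and 0 for time in PS19 upACSS2 mice. With the replicate block it was 1 for tau in stimulated upACSS2 neurons (Hapln4, log2 difference 1.52, adjusted p = 0.00529, edgeR), where same-numbered libraries did not deviate together, and 0 for time in PS19 upACSS2 mice. In the comparisons where the numbers were taken to pair the samples, the block changed no member's call.

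Leaving out single libraries gave 0 to 2 members for ACSS2 in PBS neurons of day 9. It gave 0 to 1 for tau in vector neurons and for the interaction of day 9 and for both comparisons over time in PS19 mice. For day 21 against day 9 it gave 10, 9, 8 to 9 and 8 to 9. In vector PBS neurons, Hapln1 lost its call there when only the 2 groups were fitted. Depth limits Has2 most, which had 0 to 18 counts in the mouse libraries of 10 and 22 to 23 months. With a prior count of 0.5 in place of 2, 79 of 980 log2 levels moved by over 0.1, all of them of Acan, Has2, Has3 or Tnc.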

Other observations

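Counts for 2 further kinds of matrix gene on day 21 against day 9 were as follows. In vector PBS neurons, 5 of 18 chondroitin sulphate synthesis genes tested were higher on day 21 and 3 lower, and 7 of 15 proteases and their inhibitors were higher and 4 lower (edgeR, adjusted over all genes tested). Over all genes 30.6% were higher and 27.1% lower, and neither list was tested against that share. The log2 difference of Timp1, an inhibitor of matrix metalloproteases, was 2.48 (SE 0.52, adjusted p = 0.0004, edgeR). In vector tau neurons that of Bgn, which encodes the small proteoglycan biglycan, was 2.55 (SE 0.53, adjusted p = 0.0004734, edgeR). In the vector PBS libraries 5 of 6 oligodendrocyte markers were higher and 1 lower (median 4.66), and 5 of 6 inhibitory neuron markers were higher (median 0.91). Their part in these differences was not tested.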
